A study of Mus musculus with 9 samples.

Results

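Serpina3n, Serping1, C1s1, C1ra and Hp were lower in Rb null than in wild-type mouse embryonic fibroblasts, and Serpina3n and Serping1 were also lower in null than in ΔG cells. With the signal of Y-linked genes as a covariate, the differences of Serping1, C1ra and Hp from WT did not pass the test, and those of Serpina3n and C1s1 did. The log2 difference of C1ra was then smaller in size (−0.36 against −0.57). Those of Serping1 (−0.96 against −0.85) and Hp (−0.37 against −0.28) were larger in size. All genes named belong to a set of complement and acute-phase genes chosen by symbol, namely C3, C4b, C1s (listed under its current symbol C1s1), C1ra, Serping1, Serpina3n, Lcn2, Saa3 and Hp. Of the 9 genes listed, 8 were measured by a probe set annotated to that gene alone, among 19938 genes measured in all, and C3 is not analysed here. The rule took, for each gene, the probe set with the highest mean over all 9 arrays. Each of the 8 genes had exactly 1 such probe set, so the rule made no choice by level. C1s1 and C1ra encode serine proteases, Serping1 and Serpina3n encode protease inhibitors, C4b encodes a complement substrate, and Lcn2, Saa3 and Hp encode secreted acute-phase proteins.

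The complement system is a cascade of plasma proteins in which the recognition protein C1q activates the proteases C1r and C1s, which then cleave C4 and C2. The acute-phase response is a change in the output of secreted proteins after injury or infection, best known from the liver, and is driven by interleukin-6 and interleukin-1 through the transcription factors STAT3, C/EBP and NF-kB. Fibroblasts also make several of these proteins, C1r, C1s and C1 inhibitor among them.

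Total RNA was measured on Affymetrix Mouse Gene 1.0 ST arrays, which carry probes along the length of each transcript. The groups were WT (Rb +/+), ΔG (Rb ∆G/∆G) and null (Rb -/-), with 3 arrays each. Cells of each genotype were seeded in 15 cm dishes and moved to medium with 0.1% serum 24 hours later, so all 3 groups were serum-deprived. Whether the cells of each genotype had stopped dividing was not tested. The product of Rb is pRB, which binds E2F transcription factors and restrains genes of the cell cycle, and the ∆G allele is altered in pRB's general E2F binding site, per the series title. The labels state neither the age of the embryos nor how the null allele was made. The cells came from littermate pairs, but separate embryos behind the 3 arrays of a genotype are not stated, so the spread that the p-values rest on may be in part technical.

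Rb1, the targeted gene, had a log2 signal of 9.08 ± 0.13 in WT, 9.61 ± 0.13 in ΔG and 8.31 ± 0.23 in null cells (SD, n = 3), and was lower in null than in WT cells (limma, adjusted p = 0.0011). Where its probes lie relative to the altered sequence was not tested. Xist, which is transcribed from the inactive X chromosome, separated the arrays: it was between 11.4 and 12.0 on WT replicate 3 and on all null arrays, and between 4.24 and 4.45 on WT replicates 1 and 2 and on all ΔG arrays. Between null and ΔG cells, genotype and the Xist pattern cannot be told apart, and between null and WT cells only WT replicate 3 separates them. The differences and calls of the 8 genes and of the lists were therefore also computed with mean Y-linked signal as a covariate, and those against WT cells with only the WT arrays of matching Xist pattern, which for null cells is WT replicate 3 alone, assumed to vary like the other groups. The fibroblast markers Col1a1, Col3a1, Pdgfra and others had a list mean between 11.05 and 11.37 on the WT arrays, between 10.96 and 11.18 on the ΔG arrays and between 10.53 and 10.72 on the null arrays. In bulk RNA, fewer cells of a type and less RNA per cell cannot be told apart.

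In the comparison of null with WT cells, 5 of the 8 genes were called lower and 0 higher at an adjusted p under 0.05 (limma). Of all genes, 10.1% were called lower and 8.38% higher in that comparison, 18.4% in either direction. The same 5 genes had an unadjusted p under 0.05, as did 30% of all genes. With the Y-linked covariate 2 of the 8 genes were called lower, C1s1 and Serpina3n. Over all genes, 1580 were then called in either direction, against 3678 without the covariate. Against the WT array of matching Xist pattern the differences of C1s1 and Serpina3n were −0.96 and −3.10. Without WT replicate 1, 3 of the 8 genes were called lower. The median difference, null minus WT, was −0.42 on the log2 scale over the 8 genes and −0.010 over all genes. The groups did not overlap for 6 of the 8 genes, against 34.7% of all genes. In the comparison of ΔG with WT cells limma called 0 of the 8 genes at an adjusted p under 0.05, against 0.813% of all genes (0.602% higher and 0.211% lower). C1s1 and Serpina3n had an unadjusted p under 0.05 there, 2 of the 8 genes, against 11.8% of all genes, and only C1s1 had groups that did not overlap, against 16.5% of all genes. The median ΔG minus WT difference was −0.072 over the 8 genes. In the comparison of ΔG with null cells 2 of the 8 genes were called higher and 0 lower in ΔG cells, against 4.44% and 4.27% of all genes (8.71% together). At an unadjusted p under 0.05 were 5 of the 8, against 23.1% of all genes, and 4 had groups that did not overlap, against 27% of all genes. The moderated F test over the 3 genotypes called 4 of the 8 genes, against 15.3% of all genes, and 2 of the 8 with the Y-linked covariate. The 3 pairwise comparisons share their arrays, so their results are not independent of each other.

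**Figure D1:**
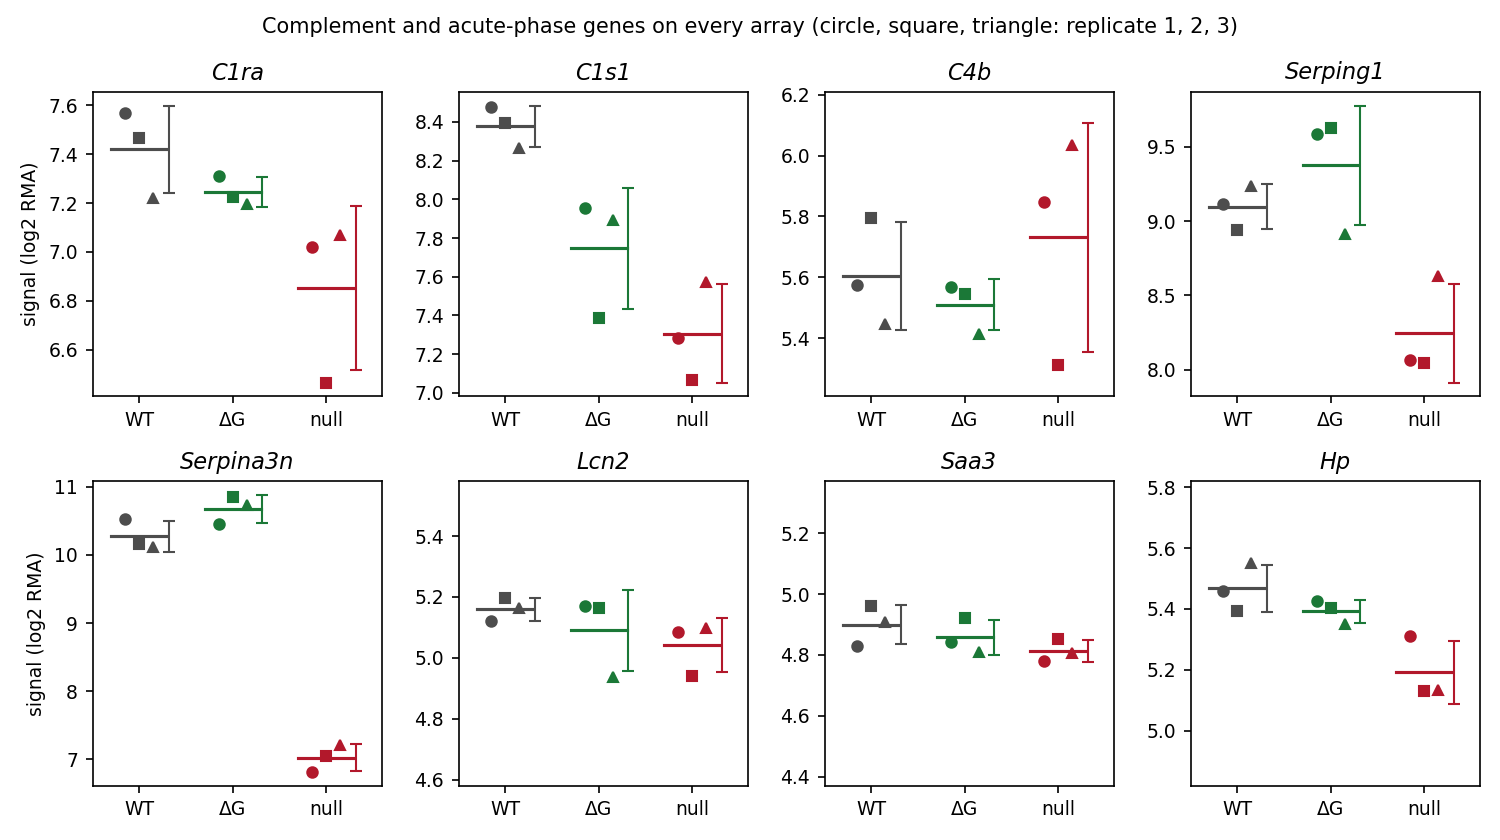
Log2 RMA signal of each of the 8 measured genes on every array, by genotype (points, shaped by replicate; line, group mean; bar, SD of 3 arrays), with a vertical axis of its own for each gene. Serpina3n is at 6.82 to 7.21 on the null arrays and at 10.12 to 10.85 on the others, and Lcn2 and Saa3 stay within a log2 range of 0.26 and 0.18 over all 9 arrays.

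Serpina3n, the inhibitor with the largest difference among the 8 genes, is a secreted serpin of the antichymotrypsin family and an acute-phase protein in mouse. Its log2 signal was 10.53, 10.17 and 10.12 on the WT arrays, 10.45, 10.85 and 10.73 on the ΔG arrays and 6.82, 7.04 and 7.21 on the null arrays. All 3 null arrays lay far below the other 6, and the WT and ΔG ranges overlapped. Signal was 9.51-fold lower in null than in WT cells (95% interval 7.71 to 11.7, log2 difference −3.25, SE 0.14, limma adjusted p = 4.3e-07), and the fall ranked 5 of 19938 genes. ΔG cells were 12.6-fold higher than null cells (95% interval 10.2 to 15.5, limma adjusted p = 1.8e-07). The ΔG minus WT difference was 0.40 on the log2 scale (95% interval 0.10 to 0.71, limma adjusted p = 0.256). The neighbouring genes Serpina3i, Serpina3j, Serpina3k and Serpina3m were not measured singly. Whether their transcripts add to the signal of the Serpina3n probe set was not tested. The null minus WT call was kept under all 18 alternatives, with a log2 difference between −3.34 and −3.10.

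Serping1, which encodes C1 inhibitor, the serpin that inactivates C1r and C1s, was lower in null cells than in both other groups. The log2 signal was 9.12, 8.94 and 9.24 on the WT arrays, 9.59, 9.62 and 8.91 on the ΔG arrays and 8.06, 8.04 and 8.63 on the null arrays. The 3 null arrays lay below the other 6, with null replicate 3 nearest to them, and ΔG replicate 3 was below every WT array. Signal was 1.80-fold lower in null than in WT cells (95% interval 1.34 to 2.43, log2 difference −0.85, SE 0.20, limma adjusted p = 0.011). ΔG minus null was 1.13 on the log2 scale (95% interval 0.70 to 1.56, 2.18-fold, limma adjusted p = 0.0057), and ΔG minus WT was 0.28 (95% interval −0.15 to 0.71, limma adjusted p = 0.656). The null minus WT call was lost without null replicate 1 (−0.76, adjusted p = 0.0516), with the Y-linked covariate (−0.96, adjusted p = 0.0819) and against the WT array of matching Xist pattern (−0.99, adjusted p = 0.0686), and the ΔG minus null call was lost with the Y-linked covariate (1.28, adjusted p = 0.183).

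C1s1, the protease that cleaves C4 and C2 once C1r has activated it, was lower in null than in WT cells, with the ΔG mean in between. Its log2 signal was 8.47, 8.39 and 8.27 on the WT arrays, 7.96, 7.39 and 7.89 on the ΔG arrays and 7.28, 7.07 and 7.57 on the null arrays. All WT arrays lay above all others, while the ΔG and null ranges overlapped through ΔG replicate 2. Signal was 2.10-fold lower in null than in WT cells (95% interval 1.66 to 2.66, log2 difference −1.07, SE 0.16, limma adjusted p = 0.00081), a call kept under all 18 alternatives with a log2 difference between −1.20 and −0.95. The ΔG minus WT difference was −0.63 (95% interval −0.97 to −0.29) and did not pass the test (limma adjusted p = 0.104, unadjusted p = 0.0018). ΔG minus null was 0.44 (95% interval 0.098 to 0.78, limma adjusted p = 0.111), and was called without ΔG replicate 2 (0.62, adjusted p = 0.0299).

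C1ra, the protease that activates itself on C1q and then activates C1s, differed less. C1ra had a log2 signal of 7.57, 7.46 and 7.22 on the WT arrays, 7.31, 7.22 and 7.20 on the ΔG arrays and 7.02, 6.47 and 7.07 on the null arrays. The null arrays lay below all others, null replicate 2 lowest, and the WT and ΔG ranges overlapped. Signal was 1.48-fold lower in null than in WT cells (95% interval 1.19 to 1.85, log2 difference −0.57, SE 0.15, limma adjusted p = 0.019). This call was lost without WT replicate 1 (adjusted p = 0.0699), without WT replicate 2 (adjusted p = 0.0629), with the Y-linked covariate (−0.36, adjusted p = 0.35) and against the WT array of matching Xist pattern (−0.37, adjusted p = 0.327). Without null replicate 2 the difference was −0.37 (adjusted p = 0.0364). ΔG minus WT was −0.18 (limma adjusted p = 0.72) and ΔG minus null was 0.39 (limma adjusted p = 0.128).

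C1rl, C1ra, C1s1, C1rb and C1s2 are 5 neighbours on chromosome 6 in the RefSeq gene order, and 4 of them were measured singly. All 4 were called lower in null than in WT cells, against 10.1% of all genes. Beside C1ra and C1s1 these were C1rl, a C1r-like protease, by 1.34-fold (limma adjusted p = 0.0057) and C1s2, a second C1s gene of the mouse, by 1.52-fold (limma adjusted p = 0.00057). With the Y-linked covariate C1ra lost its call (limma adjusted p = 0.35), while C1rl, C1s1 and C1s2 kept theirs. The flanking genes had other values, Clstn3 with a null minus WT difference of 0.18 (limma adjusted p = 0.238) and Lpcat3 with 0.070 (limma adjusted p = 0.637). Pex5, the gene beyond Clstn3, was lower in null cells (−0.40, limma adjusted p = 0.0014), so the lower genes of this stretch were not only those of C1r and C1s. These 3 genes were not computed under the alternatives. C1ra and C1rb share 1 probe set that was not used, and probes of such close paralogues can take up each other's transcript, so the values of C1ra against C1rb and of C1s1 against C1s2 are uncertain.

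Windows around the transcription start are shown for every measured gene that had one in the table used, Serpina3n, C1s1 and C1ra of the called genes, and Lcn2 and Saa3 of those that did not pass the test. They are RefSeq sequences on build GRCm38.p6, from 250 bases before to 50 after the start, written 5′ to 3′ on the gene's strand, and 5 of the 8 measured genes had one, with Serping1, Hp and C4b named only. Serpina3n lies at chr12:104406458-104406757 (plus strand), C1s1 at chr6:124542310-124542609 (minus strand), C1ra at chr6:124512371-124512670 (plus strand), Lcn2 at chr2:32387690-32387989 (minus strand) and Saa3 at chr7:46715627-46715926 (minus strand). C1s1 has a further start, whose window overlaps the one shown. Capitals mark the matches to the motifs named after the sequences.
Serpina3n: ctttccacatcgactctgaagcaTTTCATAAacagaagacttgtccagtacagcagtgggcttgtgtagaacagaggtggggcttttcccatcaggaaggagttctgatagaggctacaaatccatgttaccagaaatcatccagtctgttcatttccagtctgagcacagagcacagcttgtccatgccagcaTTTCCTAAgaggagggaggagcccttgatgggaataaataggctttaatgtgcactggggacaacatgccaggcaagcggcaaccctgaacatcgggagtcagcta
C1s1: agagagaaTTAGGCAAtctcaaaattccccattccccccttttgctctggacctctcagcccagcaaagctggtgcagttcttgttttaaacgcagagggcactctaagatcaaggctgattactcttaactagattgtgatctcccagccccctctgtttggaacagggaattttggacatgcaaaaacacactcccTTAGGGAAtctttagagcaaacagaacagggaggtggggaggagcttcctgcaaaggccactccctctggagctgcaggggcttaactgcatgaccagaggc
C1ra: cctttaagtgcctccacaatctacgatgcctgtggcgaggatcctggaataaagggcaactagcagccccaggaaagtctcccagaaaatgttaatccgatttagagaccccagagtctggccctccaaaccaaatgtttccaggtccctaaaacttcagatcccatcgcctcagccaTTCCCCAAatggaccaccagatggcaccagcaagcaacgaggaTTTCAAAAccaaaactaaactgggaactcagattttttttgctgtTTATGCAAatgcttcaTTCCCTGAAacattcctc
Lcn2: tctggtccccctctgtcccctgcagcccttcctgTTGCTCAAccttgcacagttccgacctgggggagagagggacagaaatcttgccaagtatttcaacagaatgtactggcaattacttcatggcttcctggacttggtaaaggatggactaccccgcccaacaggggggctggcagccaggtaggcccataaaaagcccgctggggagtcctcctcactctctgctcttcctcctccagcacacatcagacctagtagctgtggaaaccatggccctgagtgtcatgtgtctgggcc
Saa3: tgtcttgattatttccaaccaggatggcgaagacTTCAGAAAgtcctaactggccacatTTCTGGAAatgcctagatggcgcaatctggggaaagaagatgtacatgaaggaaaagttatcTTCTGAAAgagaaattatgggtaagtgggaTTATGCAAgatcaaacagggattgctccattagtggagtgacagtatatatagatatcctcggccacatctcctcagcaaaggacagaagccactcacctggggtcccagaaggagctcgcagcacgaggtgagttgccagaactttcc
The motifs searched on both strands were TTNNGNAA for C/EBP, TTCNNNGAA for STAT, TTTNNCGC for E2F, TATAAA and the NF-kB consensus. All 5 windows held TTNNGNAA, which is found in 40.7% of all RefSeq promoter windows of this length. Its matches lay at −227 to −220 and −56 to −49 in Serpina3n, at −242 to −235 and −52 to −45 in C1s1, and at −216 to −209 in Lcn2, counted from the start site. C1ra held 3 matches and Saa3 held 4. Only C1ra held TTCNNNGAA, at 33 to 41 after the start, a motif found in 8.3% of windows. TTTNNCGC (5.17% of windows), TATAAA (13.6%) and the NF-kB consensus (4.51%) had no match in these 5 windows, which says only that those letters are not in them. No matches overlapped, and a match is a description of the letters, not a binding site.

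C4b, the fourth complement component and the substrate of C1s, did not pass the test in any comparison. Its log2 signal was 5.58, 5.80 and 5.45 on the WT arrays, 5.57, 5.55 and 5.41 on the ΔG arrays and 5.85, 5.31 and 6.03 on the null arrays. The 3 groups overlapped, and the null arrays held both the highest and the lowest value. The null minus WT difference was 0.13 (95% interval −0.22 to 0.47, limma adjusted p = 0.668), ΔG minus WT was −0.096 (limma adjusted p = 0.885) and ΔG minus null was −0.22 (limma adjusted p = 0.452). C4b has a near-identical mouse copy, C4a, and the array may not separate them.

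Hp, haptoglobin, binds free haemoglobin in plasma. Log2 signals were 5.46, 5.39 and 5.55 on the WT arrays, 5.43, 5.40 and 5.35 on the ΔG arrays and 5.31, 5.13 and 5.13 on the null arrays. The null arrays lay below all others and the WT and ΔG ranges overlapped. Signal was 1.21-fold lower in null than in WT cells (95% interval 1.08 to 1.36, log2 difference −0.28, limma adjusted p = 0.026). The call was lost with the Y-linked covariate (−0.37, limma adjusted p = 0.0706). It was also lost without WT replicate 1 (adjusted p = 0.0634), WT replicate 3 (0.0877), null replicate 2 (0.0853) or null replicate 3 (0.0834). Against the WT array of matching Xist pattern the difference was −0.36. ΔG minus WT was −0.075 (limma adjusted p = 0.787) and ΔG minus null was 0.20 (limma adjusted p = 0.132). Its signal is low, as is that of C4b, Lcn2 and Saa3: these 4 genes had means below the array medians, and no detection calls were used.

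Lcn2, lipocalin 2, binds bacterial siderophores and is a neutrophil granule protein that stressed cells also release. Its log2 signal was 5.12, 5.20 and 5.16 on the WT arrays, 5.17, 5.16 and 4.94 on the ΔG arrays and 5.09, 4.94 and 5.10 on the null arrays. The null arrays lay just below the WT arrays, and the ΔG arrays overlapped both. The null minus WT difference was −0.12 (95% interval −0.30 to 0.062, limma adjusted p = 0.387), ΔG minus WT was −0.070 (limma adjusted p = 0.824) and ΔG minus null was 0.049 (limma adjusted p = 0.783).

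Saa3, an amyloid A apolipoprotein made outside the liver in mouse, had a log2 signal of 4.83, 4.96 and 4.91 on the WT arrays, 4.84, 4.92 and 4.81 on the ΔG arrays and 4.78, 4.85 and 4.81 on the null arrays. The groups overlapped. The null minus WT difference was −0.087 (95% interval −0.24 to 0.063, limma adjusted p = 0.456), ΔG minus WT was −0.042 (limma adjusted p = 0.884) and ΔG minus null was 0.045 (limma adjusted p = 0.759). The liver forms Saa1 and Saa2, whose sequences are close to each other, had limma adjusted p-values of 0.339 and 0.948 in null minus WT.

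**Figure D2:**
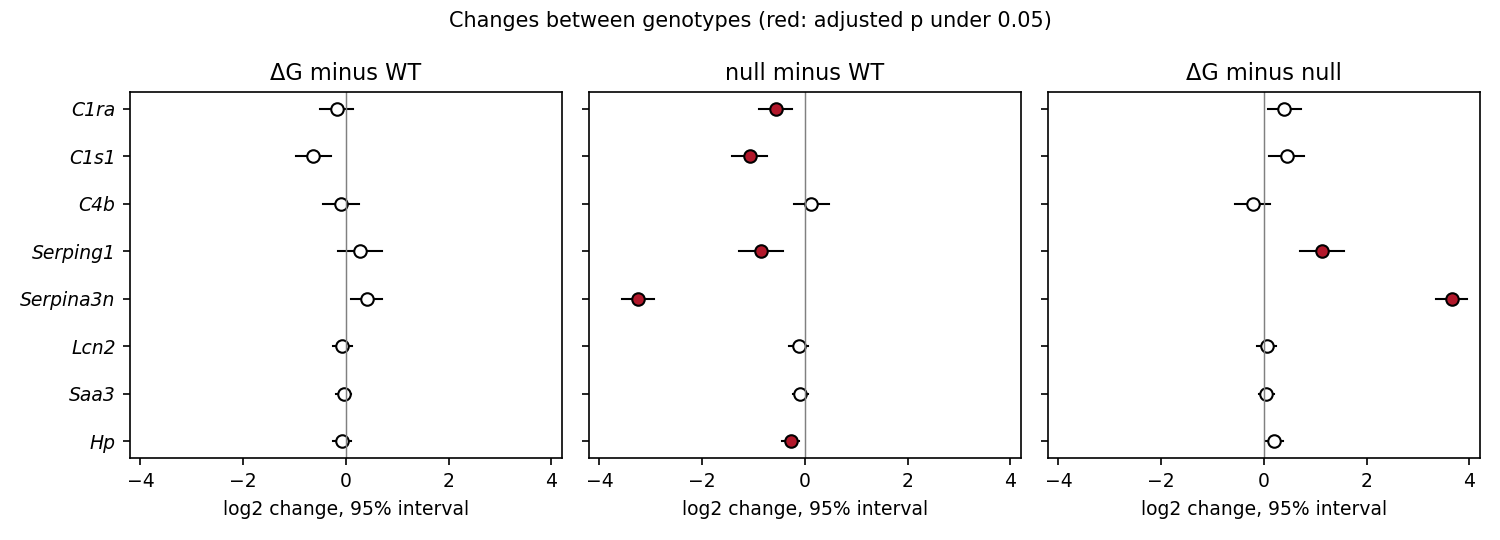
Log2 difference of each of the 8 genes in each of the 3 pairwise comparisons of genotypes, with 95% intervals from the limma fit and called genes in red. In null minus WT the interval of Serpina3n runs from −3.55 to −2.95, and those of C4b, Lcn2 and Saa3 include 0.

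Among the other complement components, 25 of 27 listed genes were measured, and 5 were called lower and 0 higher in null than in WT cells, against 10.1% and 8.38% of all genes. Their median difference was −0.074. Colec10 and Colec12, collectins that bind sugars or other ligands, were 1.44-fold and 1.52-fold lower (limma adjusted p = 0.0027 and 0.0023). C2, the protease of the classical convertase, was 1.42-fold lower (limma adjusted p = 0.011), a call lost without null replicate 1 (adjusted p = 0.0528). C1s2 and C1rl made up the other called genes. With the Y-linked covariate C2 (−0.20, adjusted p = 0.403) and Colec12 (−0.43, adjusted p = 0.101) were not called. The terminal components Hc, C6, C7, C8a, C8b, C8g and C9 did not pass the test, C8g having the lowest adjusted p of 0.092. In ΔG minus WT limma called 0 of the 25, and 4 had an unadjusted p under 0.05, against 11.8% of all genes. There C1s2 was at −0.40 (limma adjusted p = 0.055) and Colec10 at −0.36 (limma adjusted p = 0.127). Without ΔG replicate 3 both were called lower (C1s2 −0.46, adjusted p = 0.0376, and Colec10 −0.45, adjusted p = 0.0498), and C1s2 also under the filter on the dimmest genes (adjusted p = 0.049).

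Of the complement inhibitors and receptors, 3 of 21 measured genes were called higher and 3 lower in null minus WT, against 8.38% and 10.1% of all genes. Cd55, which speeds the decay of convertases on the cell surface, was 1.59-fold higher (limma adjusted p = 0.00044), and Cd59a, which blocks the membrane attack complex, was 1.60-fold higher (limma adjusted p = 0.0105). Cd46, a membrane cofactor for the cleavage of C3b and C4b, was 1.61-fold lower (limma adjusted p = 0.0017). Clu, clusterin, a fluid-phase inhibitor, was 2.18-fold lower (limma adjusted p = 0.0044), with a ΔG minus WT difference of −0.91 that did not pass the test (limma adjusted p = 0.097) and did without ΔG replicate 3 (−1.13, adjusted p = 0.0212). Susd4 (0.30) and Cd93 (−0.62) were also called, at adjusted p = 0.020 and 0.043. Susd4 lost its call without WT replicate 1 (0.0729), null replicate 1 (0.0603) or null replicate 2 (0.0739), and Cd93 without WT replicate 1 or 2, ΔG replicate 2 or any null array (adjusted p up to 0.15). With the Y-linked covariate Cd59a (0.37, adjusted p = 0.318), Clu (−0.75, adjusted p = 0.166), Cd93 (−0.34, adjusted p = 0.522) and Susd4 (0.28, adjusted p = 0.205) were not called. In ΔG minus WT limma called 0 of the 21, with 2 at an unadjusted p under 0.05, against 11.8% of all genes.

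Of the other acute-phase genes, 27 of 36 were measured, with 3 called higher and 2 lower in null minus WT, near the 18.4% of all genes called in either direction, and a median of 0.012. Itih2, a chain of the inter-alpha-trypsin inhibitor, was 2.27-fold higher in null than in WT cells (limma adjusted p = 0.00034). Lbp (0.50), which presents lipopolysaccharide to its receptors, and Steap4 (0.28) were higher and A2m (−0.39) and Hpx (−0.35) were lower, with adjusted p between 0.028 and 0.049. All 4 of these lost their calls without single arrays: Lbp without any 1 of the WT arrays, ΔG replicate 1 or null replicate 1 or 3 (adjusted p up to 0.118, with a difference of 0.32 without null replicate 3), and Steap4 without WT replicate 2 or 3, any ΔG array or null replicate 1 or 3 (up to 0.154). A2m lost its call without WT replicate 1 or 2 or null replicate 2 or 3 (up to 0.103), and Hpx without WT replicate 2 or 3 or null replicate 1 or 3 (up to 0.103). None of the 4 was called by limma with the Y-linked covariate. A2m was then smaller in size, at −0.17 (adjusted p = 0.547). Hpx (−0.40, adjusted p = 0.137), Lbp (0.65, adjusted p = 0.107) and Steap4 (0.37, adjusted p = 0.111) were larger in size than without it. The replicate block also ended the Lbp call (adjusted p = 0.0614). In ΔG minus WT limma called 0 of the 27, with 2 at an unadjusted p under 0.05, against 11.8% of all genes.

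The cytokines that induce the response had 0 of 12 measured genes called by limma in any of the 3 comparisons, with 2 at an unadjusted p under 0.05 in null minus WT, where 18.4% of all genes were called and 30% had such a p. Il6 had a null minus WT difference of −0.24 (limma adjusted p = 0.115) and Clcf1 of 0.24 (limma adjusted p = 0.103). Called in null minus WT were 2 of 13 receptor genes and 4 of 18 transcription factor genes, near the share of all genes. Tnfrsf1b, a receptor for tumour necrosis factor, was 1.57-fold higher (limma adjusted p = 0.011) and Ifngr1, a chain of the interferon-gamma receptor, was 1.28-fold lower (limma adjusted p = 0.0115). Of the transcription factor genes, Rel, an NF-kB subunit, was 1.36-fold higher (limma adjusted p = 0.0059), Cebpa and Cebpd were higher by 0.29 and 0.32 on the log2 scale, and Stat3 fell by 0.22 (limma adjusted p = 0.034, 0.0325 and 0.030). Cebpa lost its call without any 1 of the WT arrays or null replicate 1 or 3 (adjusted p up to 0.127), Cebpd without WT replicate 2 or 3 or null replicate 2 or 3 (up to 0.111), and Stat3 without any 1 of the WT arrays or null replicate 1 or 2 (up to 0.0948). With the Y-linked covariate limma did not call Rel (0.24, adjusted p = 0.238), Stat3 (−0.21, adjusted p = 0.231) or Ifngr1 (−0.36, adjusted p = 0.115). Cebpa (0.395, adjusted p = 0.0821) and Cebpd (0.42, adjusted p = 0.084) were not called either. The differences of Cebpa and Cebpd were larger than without the covariate, and that of Rel was smaller.

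**Figure D3:**
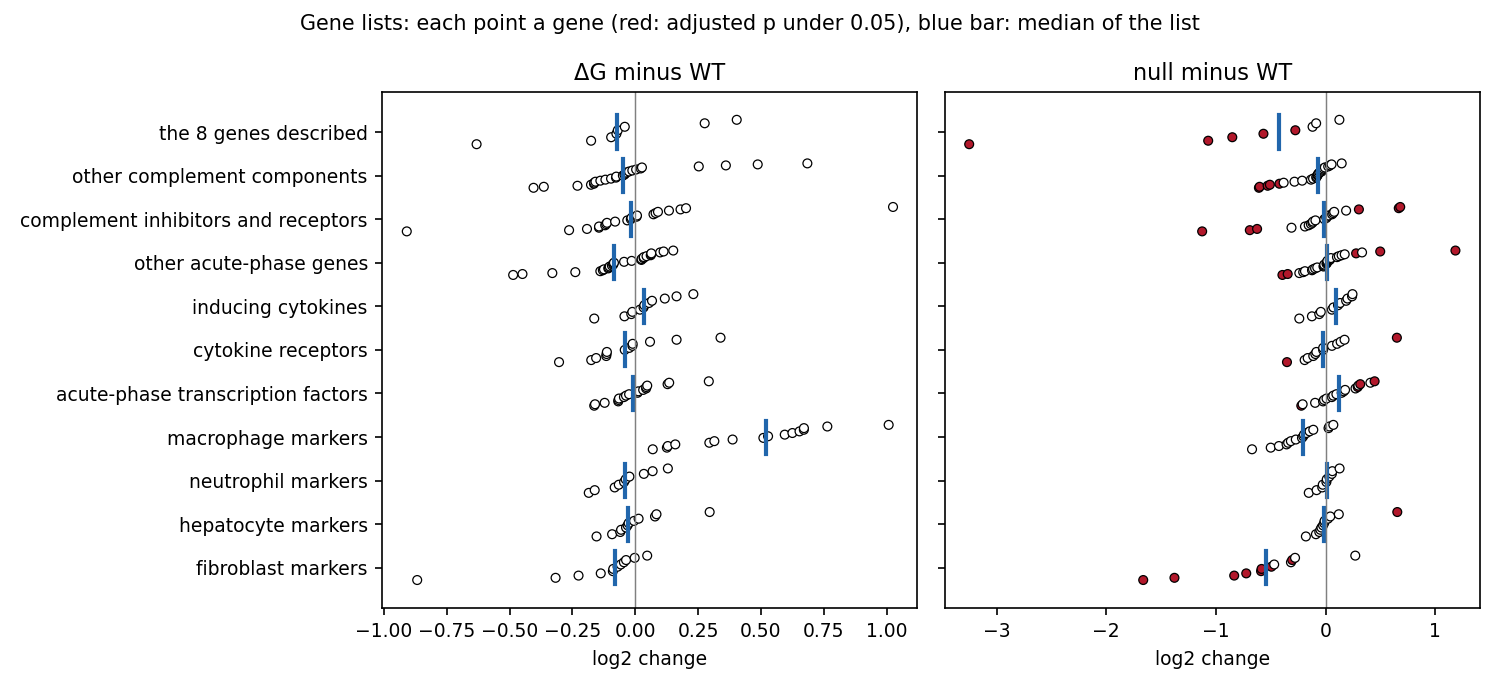
Log2 difference ΔG minus WT (left) and null minus WT (right) of every measured gene of the lists shown, with genes called by limma in red and the list median as a blue bar, on horizontal axes of different range. On the right the 8 genes have a median of −0.42 and the fibroblast markers of −0.54, Serpina3n at −3.25 lies farthest left among the genes shown, and on the left no gene shown is called and the macrophage markers have a median of 0.52.

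Markers of other cell types were read beside these values. Of 12 fibroblast markers 8 were called lower and 0 higher in null than in WT cells, against 10.1% and 8.38% of all genes, with a median of −0.54. The lowest F test p-values belonged to Dcn (−1.38), Thy1 (−0.72), Col3a1 (−0.59), Col1a2 (−0.58), Col1a1 (−0.49) and Lum (−1.66), all called. With the Y-linked covariate 1 of the 12 was called and the median was −0.27, and with matching Xist pattern 1 was called and the median was −0.30. In ΔG minus null 5 of the 12 were called higher, against 4.44% of all genes, with a median of 0.46. With the Y-linked covariate limma called 0 of them there, with a median of 0.072, and 53 of all genes (1737 without it). Genotype and the Xist pattern cannot be told apart in ΔG minus null, so the covariate cannot decide whether that difference goes with genotype. The part of the fibroblast list's difference in the lower complement and serpin signal was not tested.

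Macrophage markers had list means of 6.56, 6.10 and 5.45 on the WT arrays, 7.18, 6.60 and 5.74 on the ΔG arrays and 5.95, 5.57 and 5.88 on the null arrays. They were highest on ΔG replicate 1 and the genotypes overlapped. Limma called 0 of 16 in each of the 3 comparisons. At an unadjusted p under 0.05 were 1 in ΔG minus WT, 0 in null minus WT and 7 in ΔG minus null, where the median was 0.66. Of all genes, 11.8%, 30% and 23.1% had such a p in these comparisons. Without ΔG replicate 3, 10 of the 16 were called in ΔG minus null, beside 2408 of all genes, and with the replicate block 4 were, beside 1977. With the Y-linked covariate limma called 0 in each comparison, beside 53 of all genes in ΔG minus null and 1580 in null minus WT. The list median was then −0.26 in ΔG minus null, opposite in sign to the 0.66 without it. Genotype and the Xist pattern cannot be told apart there. The −0.26 rests mainly on WT replicate 3, which had the lowest macrophage mean of the WT arrays, so it cannot decide the sign. In null minus WT the list median was 0.32, against −0.21 without the covariate, and in ΔG minus WT 0.17, against 0.52. Cd14 and Ptprc, with the lowest F test p-values, had ΔG minus null differences of 0.43 and 0.44 (limma adjusted p = 0.0818 and 0.137). C1qb, chosen after its values were seen, had 7.67, 7.12 and 5.79 on the WT arrays and 8.44, 7.64 and 6.55 on the ΔG arrays, high and low on the same arrays as the macrophage list. On the ΔG arrays Serping1 was also lowest on replicate 3 (9.59, 9.62 and 8.91), while on the WT arrays, where the macrophage mean was lowest on replicate 3, Serping1 was highest there (9.12, 8.94 and 9.24). The part of the macrophage list in the values of the 8 genes was not tested.

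Hepatocyte list means stayed between 5.35 and 5.43, with albumin between 4.64 and 4.85, and neutrophil list means between 4.98 and 5.09 on all arrays. Called in null minus WT were 1 of 12 hepatocyte markers, Rbp4 (0.65, limma adjusted p = 0.0123), and 1 of 6 adipocyte markers, Fabp4 (0.78, limma adjusted p = 0.00031). Of 6 endothelial markers 1 was called, Emcn (−0.81, limma adjusted p = 0.0494). Of all genes 18.4% were called there. With the Y-linked covariate Rbp4 and Emcn were not called, and the adipocyte list kept 1 call. With single arrays left out, 0 to 1 hepatocyte and 0 to 2 endothelial markers were called. Limma called 0 of 10 neutrophil and 0 of 6 epithelial markers in each comparison. At an unadjusted p under 0.05 were 1 neutrophil marker in ΔG minus WT, 1 in ΔG minus null and 0 in null minus WT, and 0 epithelial markers in each. The lowest F test p-values of these lists belonged to Prtn3, Ngp, Epcam and Krt8, with null minus WT differences of 0.0069, 0.13, 0.038 and 0.070.

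**Figure D4:**
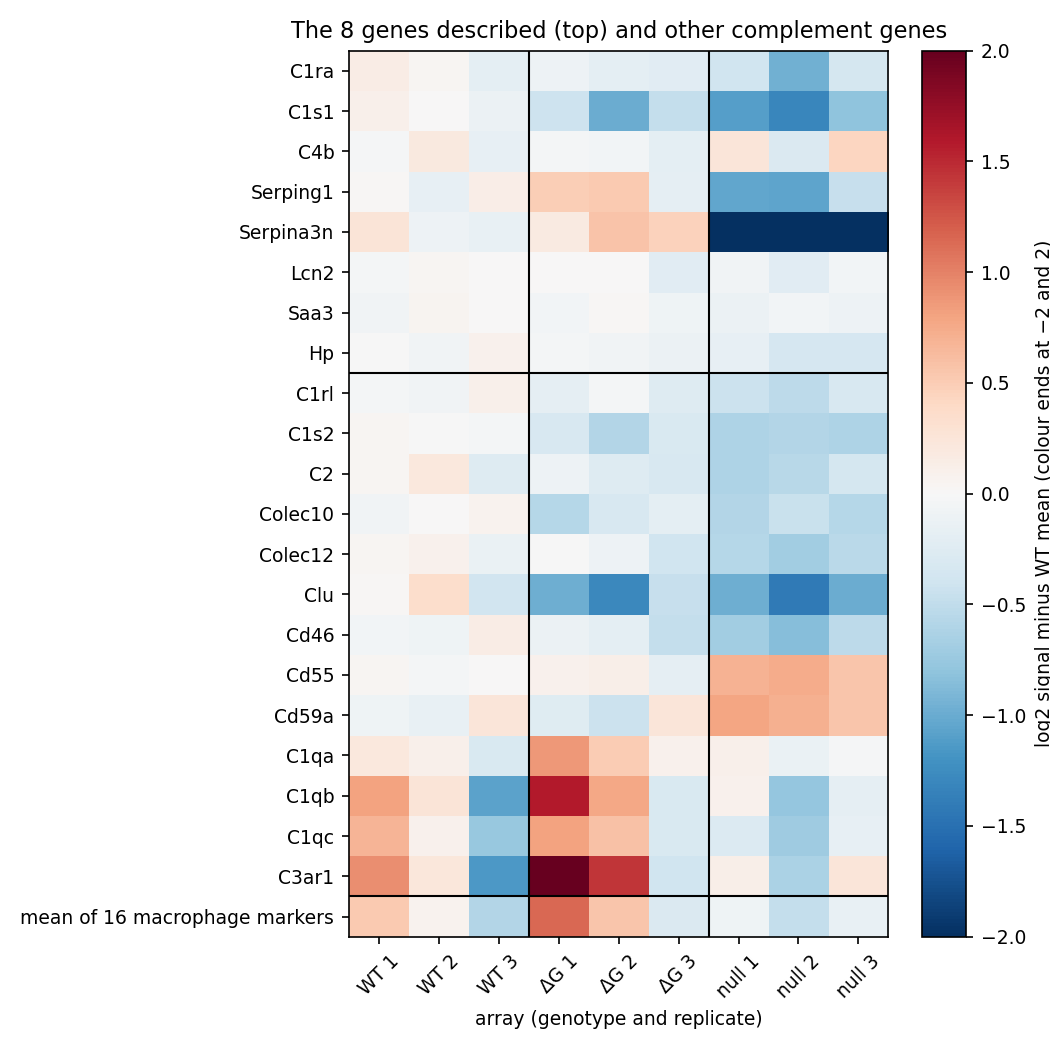
Log2 signal minus the WT mean (colour, ending at −2 and 2) on each of the 9 arrays (columns) for the 8 genes, other complement genes and the mean of 16 macrophage markers (rows). Serpina3n is beyond the low end of the scale on all 3 null arrays, while C1qb is high on ΔG replicate 1 (8.44) and low on WT replicate 3 (5.79), as the macrophage mean is (7.18 and 5.45).

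The genes whose signal over the 9 arrays was most like that of each gene were found by Pearson's r, among genes with an SD over arrays of at least 0.2. For Serpina3n these were Trak1 (0.992), Gstk1 (0.984) and Zdbf2 (0.981). For C1s1 they were Fgf11 (0.976), Pou6f1 (0.974) and C1qtnf7 (0.964), and for C1ra they were Mfap2 (0.980), Lama4 (0.960) and Itm2a (0.958). For Serping1 they were Arhgap6 (0.982), St3gal1 (0.978) and Pde3a (0.967). The mean of the standardised genes was most like Col3a1 (0.982), a collagen gene that is also among the fibroblast markers. For Hp, C4b, Lcn2 and Saa3 the highest were Tdrp (0.959), Deptor (0.906), Slc39a2 (0.905) and Xkr4 (0.926). The 9 arrays fall into 3 genotypes that all these genes share, so the values are a description only.

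**Figure D5:**
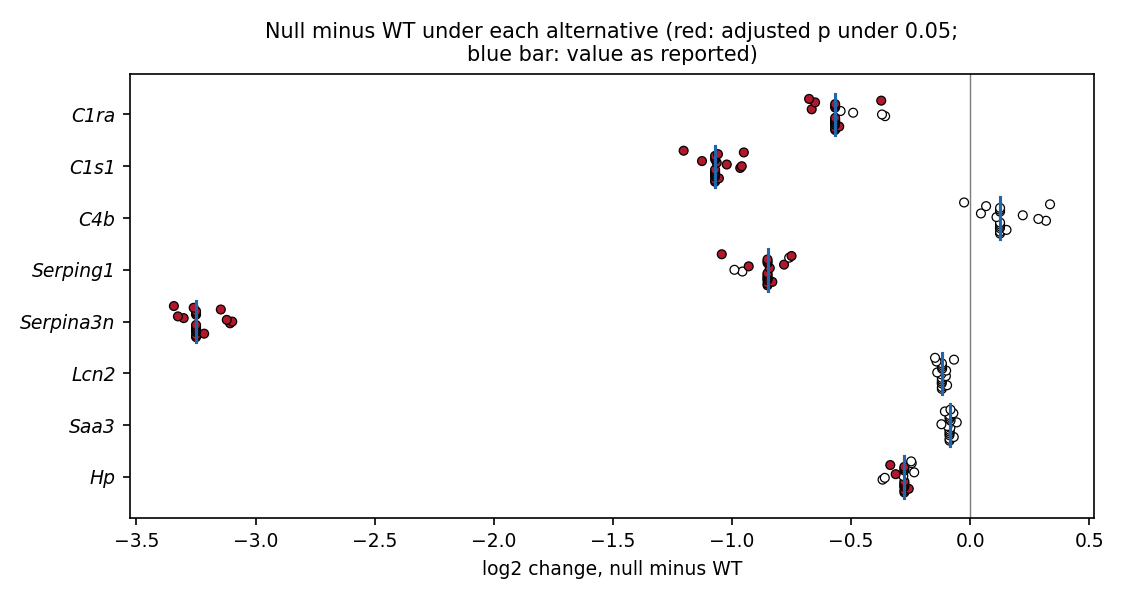
Log2 difference null minus WT of each of the 8 genes as reported (blue bar) and under each alternative (points, red where the adjusted p is under 0.05). Serpina3n stays between −3.34 and −3.10 and C1s1 between −1.20 and −0.95, called in all 18 alternatives, and Hp, C1ra and Serping1 lose their calls in some.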

How the data were processed

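The deposited values are log2 signals from RMA, a method of background correction, quantile normalisation and summary over probes that the authors ran before deposit. Per the labels and series text they are RMA values from BRB-ArrayTools, and the submitters' processing notes name RMA and affy. No source used here gives the versions, the array's build, or whether RMA took all 9 arrays at once. Array medians were nearly equal and no further scaling was applied.

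Of 35512 probe sets, 1 had no values and 21789 had exactly 1 gene symbol in the platform annotation. The probe set with the highest mean was used for each of the 999 genes with several, which left 19938 genes; 19856 of these matched RefSeq (GRCm38.p6) by gene ID. All 9 arrays entered a single model with 1 mean for each genotype (R 4.3.3, limma 3.58.1), with default eBayes and Benjamini-Hochberg adjustment over all genes within each comparison, called at 0.05. Precision is limited by the number of arrays. The fit was tested on simulated data.

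All 8 measured genes are named, and of each other list the called genes (at most 6, lowest F test p first) or, with none called, the 2 with the lowest F test p. The genes, the lists and the tests were chosen with earlier results of these data known. The groups share replicate numbers, which the labels do not tie to litters, so the model has no pairing. Alternatives covered the probe set rule, repeated quantile normalisation, median centring, a filter on the dimmest genes, eBayes with trend, only the groups compared, the replicate block, Y-linked signal, matching Xist pattern, and each array left out in turn.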

Additional observations from a re-analysis of the deposited data

How the results depend on the processing

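Serpina3n and C1s1 kept their null minus WT calls under all 18 alternatives, and C1ra, Serping1 and Hp lost theirs in some. The count of the 8 genes called lower in null than in WT cells was 5, and 2 with the Y-linked covariate and 2 against the WT array of matching Xist pattern, with 3 to 5 when single arrays were left out. Called higher in ΔG than in null cells were 2, with 1 under the Y-linked covariate and 2 to 3 with single arrays left out; 0 to 1 were called lower, C4b without null replicate 2 (−0.43, adjusted p = 0.0488). The F test called 4 of the 8, 2 with the Y-linked covariate and 3 to 4 with single arrays left out. Over all genes null minus WT called 3678, 1580 with the Y-linked covariate, 1782 with matching Xist pattern and 2546 to 3895 with single arrays left out. ΔG minus WT called 162, with 62 to 252 when single arrays were left out: 62 without WT replicate 2, 83, 70 and 252 without ΔG replicates 1, 2 and 3, and 91 without null replicate 1. ΔG minus null called 1737, 53 with the Y-linked covariate and 762 to 2408 with single arrays left out. The F test called 3049, 1358 with the Y-linked covariate and 1678 to 3659 with single arrays left out. The sign turned for Lcn2 in ΔG minus WT (−0.11 to 0.0071 with single arrays left out, the latter without ΔG replicate 3), Lcn2 in ΔG minus null (−0.0016 to 0.13, the former without null replicate 2), C4b in null minus WT (−0.026 to 0.34, the former without null replicate 3) and C2 in ΔG minus null with the Y-linked covariate (−0.17). The cause of these changes was not tested. With the replicate block 5 of the 8 genes were called lower in null minus WT and 3777 of all genes. ΔG minus WT then called 211 of all genes and ΔG minus null 1977. Deviations of same-numbered arrays correlated between −0.084 and 0.27. With 3 arrays a genotype these values cannot decide whether the numbers mark pairs. With the Y-linked covariate or matching Xist pattern, called genes in null minus WT fell from 5 to 3 among other complement components, from 6 to 2 among inhibitors and receptors and from 5 to 2 among other acute-phase genes. The dim filter removed C4b, Lcn2, Saa3 and Hp.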

Other observations

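Genes next to those described, chosen after their values were seen, did not all move with them. Ube2l6, a ubiquitin-conjugating enzyme gene beside Serping1 on chromosome 2, was higher in null than in WT cells by 0.86 on the log2 scale (limma adjusted p = 0.00067), while Serping1 was lower. Saal1, beside Saa3 on chromosome 7, was higher by 0.58 (limma adjusted p = 0.00089), while Saa3 did not pass the test. Next to Serpina3n on chromosome 12, Gsc had a null minus WT difference of 0.29 (limma adjusted p = 0.0526). Dicer1 beyond it had 0.038 (limma adjusted p = 0.809) and Clmn, the gene after Dicer1, 0.47 (limma adjusted p = 0.0089). Gsc and Clmn were opposite in sign to Serpina3n, and the neighbouring Serpina3 genes on the other side were not measured singly. On one side of C4b on chromosome 17, Tnxb (−0.50), Atf6b (−0.40) and Fkbpl (−0.44) were called lower. Cyp21a1 on its other side was not (0.065, limma adjusted p = 0.749). These neighbours were not computed under the alternatives.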
